A study of Mus musculus with 12 samples.

Results

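Collagen chains were followed through 91 of the 45281 probes of a bead array, those whose platform gene symbol is Col, a number, the letter a and a number. These probes name 41 of the 19057 genes with a probe on the array, of which 11 encode chains of fibrillar collagens, 8 chains of basement membrane collagens and 22 chains of other types. After a filter on detection, 24 of the 41 genes were tested, 9 fibrillar, 5 basement membrane and 10 other. The other 17 were detected on at most 2 arrays and were not tested. The cells were NIH-3T3, an established line of mouse embryonic fibroblasts, infected with a lentivirus that carries PPARG2, the fat-cell isoform of the nuclear receptor PPARγ, and grown in high-glucose medium with serum and blasticidin. The receptor was either E157D, a mutant named for the change of a glutamate to aspartate, or the wild-type form. Cells were given rosiglitazone, a PPARγ agonist of the thiazolidinedione class, at 20 µM, or an equal volume of its vehicle DMSO, and RNA was taken after 24 h. The 4 groups, each of 3 arrays, were thus E157D with rosiglitazone, E157D with DMSO, wild-type with rosiglitazone and wild-type with DMSO. The labels speak of 3 independent experiments. All groups carried a lentiviral receptor, so no group shows these fibroblasts without one, and the sources used here do not say how often each receptor was introduced into cells. The 3 probes for Pparg were below detection on all 12 arrays (the lowest of their detection values was 0.12, against a limit of 0.05), so the amount of receptor was not measured.

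Collagens are secreted proteins whose chains wind around one another into a stiff helix. Fibrillar types, of which type I is the main product of fibroblasts, pack side by side into the fibres of connective tissue, whereas type IV forms the sheet-like network of basement membranes, and further types coat fibrils, span the cell membrane or form short-chain networks. PPARγ drives the conversion of fibroblast-like precursors into fat cells, and a fat cell in tissue is wrapped in a basement membrane.

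Each array detected 16633 to 17924 of its probes (36.7% to 39.6%), and arrays of 1 group correlated at 0.988 to 0.994 across the 13006 tested features. Precision is limited by having 3 arrays in each group. All 9 genes of a fibroblast marker list were detected on all 12 arrays. The summed linear intensity of that list was 52077 to 61716 with E157D and rosiglitazone, 76662 to 82369 with E157D and DMSO, 31435 to 40857 with wild-type and rosiglitazone, and 65492 to 71433 with wild-type and DMSO. An adipocyte list, of which 5 of 6 genes have a probe and 0 were detected on all 12 arrays, summed to 261 to 316, 137 to 139, 1861 to 2469 and 187 to 221 in the same order of groups. Under rosiglitazone the fibroblast sum was thus lower and the adipocyte sum higher with either receptor, on the arrays that carry the collagen values below, and their part in those values was not tested. In these bulk samples, fewer cells of a type and less RNA per cell cannot be told apart. Of 6 chondrocyte markers, Acan, Matn1, Matn3 and Hapln1 were detected on 0 arrays and Sox9 on all 12, and the list summed to 7773 to 8669 with E157D and rosiglitazone, 9494 to 11828 with E157D and DMSO, 4925 to 7343 with wild-type and rosiglitazone, and 9292 to 12762 with wild-type and DMSO. Of 5 osteoblast markers with a probe, Ibsp and Sp7 were detected on 0 arrays and none on all 12, and that list summed to 615 to 666, 327 to 334, 132 to 160 and 136 to 187 in the same order of groups. The chondrocyte sum was thus lower under rosiglitazone with either receptor, and the osteoblast sum was higher with E157D in either treatment, and the part of both in the collagen values was not tested either.

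Of the 24 tested, 15 were detected on all 12 arrays, 6 of them fibrillar, 5 basement membrane and 4 other, and 9 on 3 to 11 arrays. Among the 17 not tested, 11 were detected on no array, among them Col10a1, the collagen of hypertrophic cartilage, and Col4a3 and Col4a4, the type IV chains best known from kidney and lung. Col12a1, Col20a1 and Col6a3 had no probe under their symbol.

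With the E157D receptor, 2 of the 24 tested collagens were called under rosiglitazone in limma's test (Benjamini-Hochberg adjusted p under 0.05), both lower. The counts for the responses with both receptors include Col17a1. It passed the detection filter only through the DMSO groups, so its calls are not read as a fall. Across all tested features 4.1% were called, 2.31% higher and 1.79% lower. With the wild-type receptor 11 of 24 collagens were called, 3 higher and 8 lower, where 26.7% of all features were called, 12.3% higher and 14.4% lower. E157D against wild-type in rosiglitazone called 10 of 24 collagens, 8 higher and 2 lower with E157D, against 19.8% of all features, 10.5% higher and 9.26% lower. In DMSO the same receptors differed in 1 collagen of 24, lower with E157D, against 1.12% of all features, 0.423% higher and 0.7% lower. The difference of the 2 responses, E157D minus wild-type, was called for 1 collagen of 24, on the lower side, against 2.38% of all features, 0.884% above 0 and 1.5% below it. These comparisons share arrays with one another, so their counts are not separate pieces of evidence.

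With the E157D receptor the median log2 change under rosiglitazone was -0.20 for fibrillar, -0.16 for basement membrane and 0.07 for other genes, against -0.17 for all collagens and -0.01 for all features. In that response 0 of 9 fibrillar and 0 of 5 basement membrane genes passed limma's test, with 0 and 4 at an unadjusted p under 0.05. Of all 13006 features 2409 reached that unadjusted limit. With the wild-type receptor 3 of 9 fibrillar genes fell and 0 rose, with a median log2 change of -0.57. Of the 5 basement membrane genes, 3 rose and 2 fell, with a median of 0.35. Of the 10 others 3 were called lower and 0 higher, with a median of -0.05. Those 3 include Col17a1, whose call is not read as a fall. The median over all collagens was -0.15, and that over all features -0.03. The plot of the rosiglitazone response gives all 24 genes with both receptors.

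**Figure D1:**
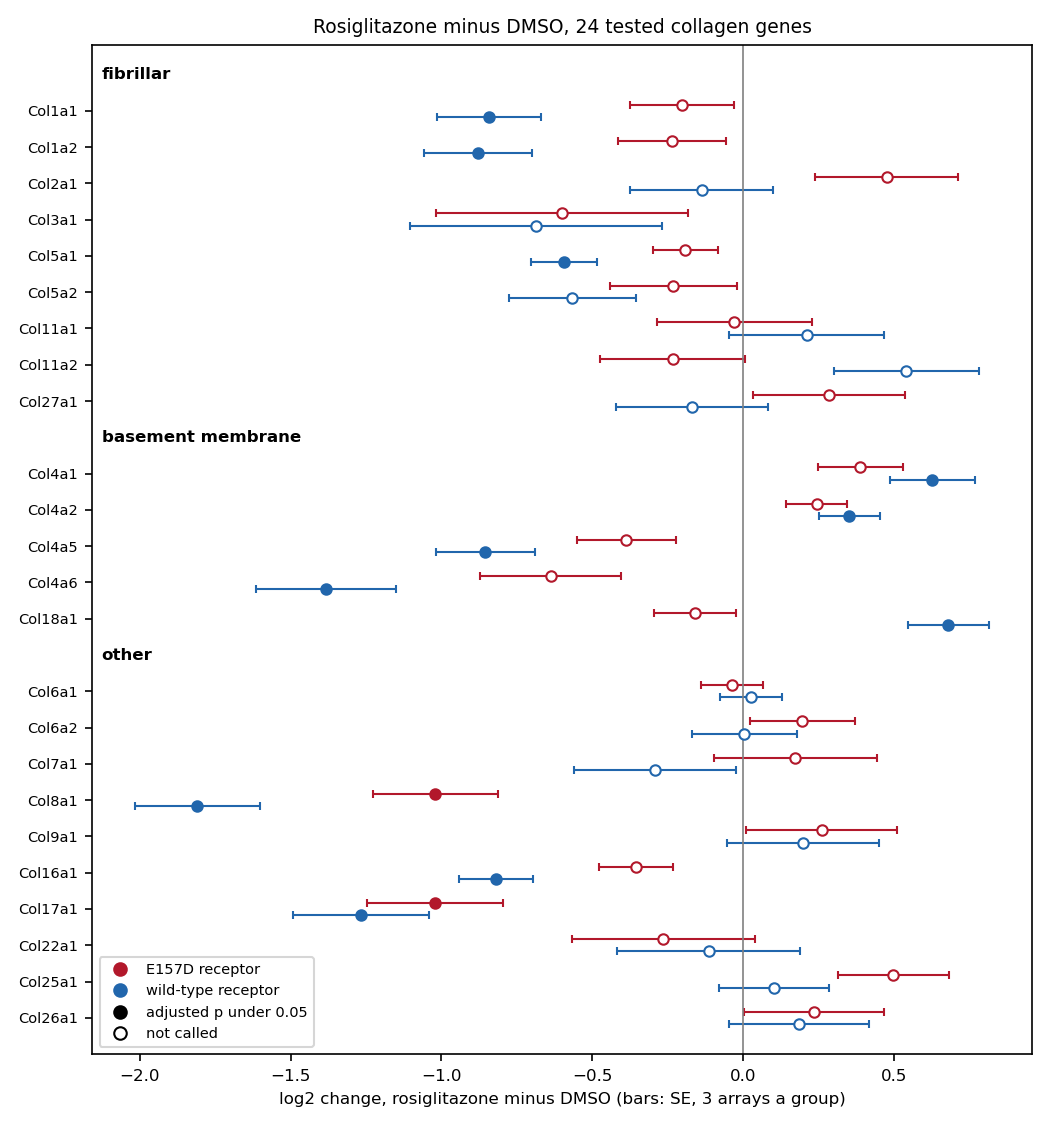
Log2 change, rosiglitazone minus DMSO, of the 24 tested collagen genes with the E157D receptor (red) and the wild-type receptor (blue); bars are standard errors (3 arrays per group), and filled points passed limma's adjusted p under 0.05. With the wild-type receptor Col1a1, Col1a2, Col5a1, Col4a5, Col4a6, Col8a1, Col16a1 and Col17a1 lie left of 0 and Col4a1, Col4a2 and Col18a1 right of it.

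Among fibrillar genes, both chains of type I collagen and the main chain of type V fell under rosiglitazone with the wild-type receptor. Col1a1, which encodes the alpha-1 chain of type I, had log2 intensities of 12.32, 12.69 and 12.63 with E157D and rosiglitazone, 12.61, 12.64 and 12.99 with E157D and DMSO, 11.23, 11.67 and 11.46 with wild-type and rosiglitazone, and 11.99, 12.41 and 12.49 with wild-type and DMSO. The wild-type rosiglitazone arrays lay below all 9 others. With E157D the arrays of both treatments overlapped, at a log2 change of -0.20 ± 0.17 (SE, n = 3 arrays per group, limma adjusted p = 0.59). With the wild-type receptor rosiglitazone changed Col1a1 by -0.84 ± 0.17 (adjusted p = 0.00407).

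Col1a2, the alpha-2 chain that joins Col1a1 in the type I helix, had 9.64, 10.01 and 9.55 with E157D and rosiglitazone, 9.83, 9.95 and 10.11 with E157D and DMSO, 8.33, 9.02 and 8.90 with wild-type and rosiglitazone, and 9.53, 9.66 and 9.71 with wild-type and DMSO. Again the 3 wild-type rosiglitazone arrays were the lowest of the 12. The change was -0.23 ± 0.18 with E157D, where the treatments overlapped (limma adjusted p = 0.54), and -0.88 ± 0.18 with the wild-type receptor (adjusted p = 0.00381).

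Col5a1 encodes a chain of type V collagen, which is buried in type I fibrils and sets their diameter. Its log2 intensity was 12.73, 12.74 and 12.71 with E157D and rosiglitazone, 12.95, 12.81 and 12.98 with E157D and DMSO, 12.15, 12.46 and 12.43 with wild-type and rosiglitazone, and 13.01, 12.84 and 12.97 with wild-type and DMSO. The rosiglitazone arrays lay below the DMSO arrays with either receptor, by -0.19 ± 0.11 with E157D (limma adjusted p = 0.38) and by -0.59 ± 0.11 with wild-type (adjusted p = 0.00212). The call with the wild-type receptor was lost when arrays were scaled to 1 median instead of quantile-normalized (adjusted p = 0.0635).

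Col5a2, its partner chain, had 7.25, 7.56 and 7.21 with E157D and rosiglitazone, 7.22, 7.67 and 7.83 with E157D and DMSO, 5.997, 6.64 and 6.54 with wild-type and rosiglitazone, and 6.85, 6.75 and 7.28 with wild-type and DMSO. The wild-type treatments did not overlap, but the change of -0.57 ± 0.21 missed the threshold (limma adjusted p = 0.066). With the replicate number as a block it passed (adjusted p = 0.0314). That block is shared by the arrays of all 4 groups, whereas the pairing check was met only for the wild-type response.

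The reported probes of the remaining fibrillar genes did not pass in any of the 5 comparisons. Col3a1, the chain of type III collagen of soft tissues, spread widely within groups, with 8.84, 9.56 and 8.20 for E157D and rosiglitazone, 9.11, 9.74 and 9.57 for E157D and DMSO, 7.41, 8.99 and 8.99 for wild-type and rosiglitazone, and 8.79, 9.34 and 9.32 for wild-type and DMSO. The change of Col3a1 at this probe was -0.60 ± 0.42 with E157D and -0.69 ± 0.42 with wild-type, and the arrays overlapped in both. A second kept probe of Col3a1, detected on all 12 arrays, had a smaller standard error. It gave -0.73 ± 0.20 with E157D (limma adjusted p = 0.077) and -0.49 ± 0.20 with wild-type (adjusted p = 0.0987), and neither passed. Wild-type rosiglitazone array 1 was the lowest array for Col1a1, Col1a2, Col3a1, Col5a1 and Col5a2 alike, and the calls of Col1a1, Col1a2 and Col5a1 with the wild-type receptor were kept without it. Col2a1, the cartilage collagen, was detected on 3 of 3 arrays with E157D and rosiglitazone, on 1 with E157D and DMSO and on 0 with wild-type in either treatment. It thus passed the filter only through the group where its signal was highest, so no difference between groups is read from it. Another probe of Col2a1, below the filter, read 4.97, 4.94 and 5.31 with E157D and rosiglitazone, against 5.65, 4.91 and 5.18 with wild-type and rosiglitazone, which overlap. For Col11a2 and Col27a1 the 2 kept probes of the gene had opposite signs in the wild-type response, so no direction is given for either gene. Between receptors in rosiglitazone the second Col11a2 probe passed limma's test at 0.61 ± 0.15 (adjusted p = 0.0132), opposite in sign to the reported probe at -0.65 ± 0.24 (adjusted p = 0.0781). In that comparison the reported Col27a1 probe passed with median scaling (0.017). The reported Col2a1 probe passed under 4 alternatives (0.0236 to 0.0497), which are not read as a difference either, because of the filter.

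**Figure D2:**
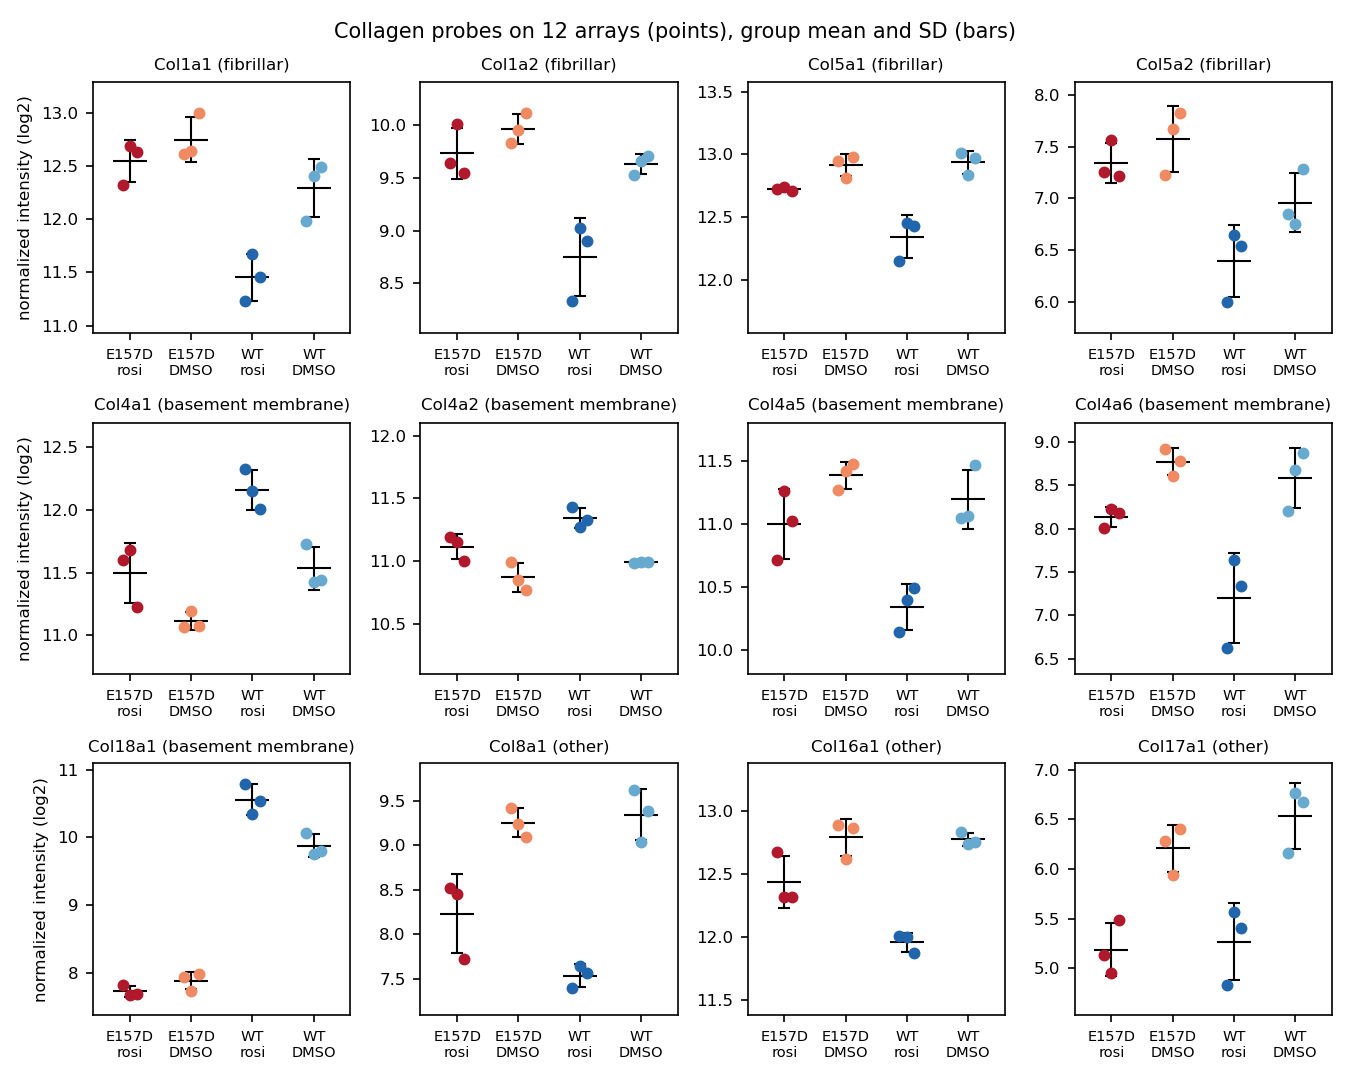
Normalized log2 intensity of 12 collagen genes on each of the 12 arrays (points) with the group mean and SD (bars), by receptor and treatment (E157D rosiglitazone, E157D DMSO, wild-type rosiglitazone, wild-type DMSO); each panel has its own vertical range, and probes of different genes cannot be set against each other. The wild-type rosiglitazone arrays are the lowest group for Col1a1, Col1a2, Col5a1, Col5a2, Col4a5, Col4a6, Col8a1 and Col16a1 and the highest for Col4a1, Col4a2 and Col18a1.

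Between the receptors, 4 of 9 fibrillar genes were called higher with E157D under rosiglitazone and 0 lower, where 10.5% of all features were called higher. The median log2 difference was 0.57 against 0.02 over all features, and the 5 uncalled genes ran from -0.65 for Col11a2 to 0.73 for Col2a1. That median is the value of the reported Col27a1 probe, and the second kept probe of Col27a1 gave -0.23 ± 0.17. The 2 kept probes of Col11a2 had opposite signs here too. Col2a1, which lies above the median, passed the filter only through the E157D rosiglitazone group. Col1a1 differed by 1.09 ± 0.17 (limma adjusted p = 0.00107), Col1a2 by 0.98 ± 0.18 (adjusted p = 0.00261), Col5a2 by 0.95 ± 0.21 (adjusted p = 0.0081) and Col5a1 by 0.38 ± 0.11 (adjusted p = 0.0294). The arrays of the 2 receptors did not overlap for these 4 genes. For Col5a1 the call rested on single arrays, being lost without wild-type rosiglitazone array 1 or without any of the E157D rosiglitazone arrays (adjusted p from 0.0613 to 0.115), with median scaling (0.0649), in a fit of only the groups compared (0.0868) and in the authors' processed table (0.12).

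In DMSO 0 of 9 fibrillar genes passed limma's test, 2 had an unadjusted p under 0.05 (against 1425 of all 13006 features), and the median difference was 0.13. Col1a1 was higher on each E157D array than on any wild-type array in DMSO, yet its difference of 0.45 ± 0.17 did not pass (adjusted p = 0.34). Col5a2 differed by 0.61 ± 0.21 in DMSO, with overlapping arrays, and did not pass either (adjusted p = 0.26). The direct test of the 2 responses passed for 0 of 9 fibrillar genes as well, with 4 at an unadjusted p under 0.05 in limma (against 2048 of all 13006 features). For Col1a1 that difference of responses was 0.64 ± 0.24 (95% interval 0.11 to 1.17, adjusted p = 0.22), so after adjustment the receptors were not shown to differ in the response of this gene.

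Basement membrane genes split within their class. The 4 tested type IV chains lie in 2 head-to-head gene pairs, Col4a1 with Col4a2 on chromosome 8 and Col4a5 with Col4a6 on chromosome X, and under rosiglitazone with the wild-type receptor the first pair rose and the second fell. Since the members of each pair start near each other and moved together, the windows from 250 bases before to 50 bases after each gene's start (RefSeq, GRCm38.p6) are printed here, with CCAAT boxes (CCAAT) and GC boxes (GGGCGG) on either strand in capitals.
Col4a1, chr8:11312777-11313076, minus strand: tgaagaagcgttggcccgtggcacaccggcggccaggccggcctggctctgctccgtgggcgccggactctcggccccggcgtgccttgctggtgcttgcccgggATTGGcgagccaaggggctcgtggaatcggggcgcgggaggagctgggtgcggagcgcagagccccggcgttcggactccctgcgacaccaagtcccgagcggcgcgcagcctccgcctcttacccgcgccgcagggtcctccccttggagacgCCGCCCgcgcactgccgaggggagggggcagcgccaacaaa
Col4a2, chr8:11312555-11312854, plus strand: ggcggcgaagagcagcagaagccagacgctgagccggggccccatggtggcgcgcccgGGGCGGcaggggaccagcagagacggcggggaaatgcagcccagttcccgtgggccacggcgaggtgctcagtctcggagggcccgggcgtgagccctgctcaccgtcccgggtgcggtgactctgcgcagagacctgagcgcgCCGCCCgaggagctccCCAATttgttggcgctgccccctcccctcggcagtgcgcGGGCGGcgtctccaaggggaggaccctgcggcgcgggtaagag
Col4a5, chrX:141475169-141475468, plus strand: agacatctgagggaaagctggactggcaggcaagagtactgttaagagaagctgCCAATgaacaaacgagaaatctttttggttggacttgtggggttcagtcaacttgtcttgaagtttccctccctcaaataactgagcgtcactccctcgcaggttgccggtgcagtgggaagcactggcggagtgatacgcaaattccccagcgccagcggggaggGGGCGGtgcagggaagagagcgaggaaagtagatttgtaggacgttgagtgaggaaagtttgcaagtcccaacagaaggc
Col4a6, chrX:141474027-141474326, minus strand: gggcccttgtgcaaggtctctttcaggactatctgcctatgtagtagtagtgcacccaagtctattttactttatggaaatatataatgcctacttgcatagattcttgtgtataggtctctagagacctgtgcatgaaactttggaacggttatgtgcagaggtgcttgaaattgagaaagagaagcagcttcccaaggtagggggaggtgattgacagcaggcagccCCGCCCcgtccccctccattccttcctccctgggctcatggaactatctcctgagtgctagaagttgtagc
The Col4a1 and Col4a2 windows overlap by 78 bases, so that both genes are read outward from nearly 1 spot, while the annotated starts of Col4a6 and Col4a5 lie 1343 bases apart. The first pair's windows are rich in G and C, at 74.0% for Col4a1 and 73.7% for Col4a2, against 52.7% for Col4a5 and 48.3% for Col4a6. Each of the 4 windows holds at least 1 GC box, Col4a2 with 3, and Col4a6 alone holds no CCAAT box. Of all 32851 windows of this length 37.41% hold CCAAT and 35.66% GGGCGG, and of the 36 windows found for 33 of the 41 collagen genes 13 and 23 do. TATAAA, held by 13.62% of all windows, and the nuclear receptor half-site AGGTCA, held by 16.26%, were absent from all 4 windows. A direct repeat of that half-site with 1 base between, held by 0.04% of all windows, was not found either. A match is a description of the letters only. Col14a1, Col1a1, Col22a1, Col26a1, Col2a1, Col4a3, Col5a2 and Col9a3 have no window in that table.

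Col4a1 and Col4a2 encode the chains of the type IV network found under nearly every epithelium and around fat and muscle cells. Col4a1 had log2 intensities of 11.60, 11.68 and 11.23 with E157D and rosiglitazone, 11.06, 11.19 and 11.08 with E157D and DMSO, 12.32, 12.15 and 12.005 with wild-type and rosiglitazone, and 11.73, 11.43 and 11.44 with wild-type and DMSO. Rosiglitazone arrays lay above DMSO arrays with either receptor, and all wild-type rosiglitazone arrays above all others. The change was 0.39 ± 0.14 with E157D (limma adjusted p = 0.16) and 0.63 ± 0.14 with wild-type (adjusted p = 0.00662).

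Col4a2 had 11.19, 11.15 and 11.01 with E157D and rosiglitazone, 10.999, 10.85 and 10.77 with E157D and DMSO, 11.43, 11.27 and 11.33 with wild-type and rosiglitazone, and 10.98, 10.997 and 10.996 with wild-type and DMSO. The wild-type rosiglitazone arrays were again the highest of the 12. The changes were 0.24 ± 0.10 with E157D (limma adjusted p = 0.22) and 0.35 ± 0.10 with wild-type (adjusted p = 0.0224). The wild-type call was no longer called without wild-type rosiglitazone array 1 (0.0806), wild-type DMSO array 2 (0.0559) or wild-type DMSO array 3 (0.0572), nor in a fit of only the groups compared (0.0563).

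Col4a5 and Col4a6 encode the chains of a second kind of type IV network, laid down among other places around smooth muscle. Col4a5 had 10.71, 11.26 and 11.03 with E157D and rosiglitazone, 11.27, 11.42 and 11.48 with E157D and DMSO, 10.14, 10.39 and 10.49 with wild-type and rosiglitazone, and 11.05, 11.07 and 11.47 with wild-type and DMSO. Col4a6 had 8.003, 8.23 and 8.18, then 8.92, 8.61 and 8.78, then 6.63, 7.64 and 7.34, and last 8.21, 8.68 and 8.87 in the same order of groups. Every rosiglitazone array lay below every DMSO array of the same receptor for both genes.

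With E157D the changes were -0.39 ± 0.16 for Col4a5 (limma adjusted p = 0.23) and -0.64 ± 0.23 for Col4a6 (adjusted p = 0.16), neither of which passed. The Col4a6 change with E157D did pass without background correction (0.0392) and in a fit of only the groups compared (0.0445). With the wild-type receptor Col4a5 changed by -0.85 ± 0.16 (adjusted p = 0.00267) and Col4a6 by -1.38 ± 0.23 (adjusted p = 0.00126). Each gene has a second kept probe, which gave -0.88 for Col4a5 and -1.14 for Col4a6 with the wild-type receptor, close to the reported probe. The difference of the 2 responses did not pass for any type IV chain, at most 0.74 ± 0.33 for Col4a6 (adjusted p = 0.30).

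Under rosiglitazone the receptors therefore stood apart in opposite directions for members of the 2 pairs. Col4a1 was lower with E157D by -0.66 ± 0.14 (limma adjusted p = 0.00648), whereas Col4a5 was higher by 0.66 ± 0.16 (adjusted p = 0.0144) and Col4a6 by 0.93 ± 0.23 (adjusted p = 0.0155). Col4a2 differed by -0.23 ± 0.10 without passing (adjusted p = 0.14), but passed in the authors' processed table (0.0102). In DMSO Col4a1 was also lower on each E157D array than on any wild-type array. That difference of -0.42 ± 0.14 did not pass (adjusted p = 0.24). In rosiglitazone Col4a5 was not called without wild-type rosiglitazone array 1 (0.0638) or E157D rosiglitazone array 2 (0.0631), nor Col4a6 without E157D rosiglitazone array 2 (0.0553). The second kept probe in rosiglitazone gave 0.49 ± 0.17 for Col4a5, which did not pass (limma adjusted p = 0.0728). For Col4a6 the second kept probe gave 0.67 ± 0.20, which passed (adjusted p = 0.0343).

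Col18a1, on chromosome 10, gave the largest difference between receptors of any collagen. It encodes type XVIII collagen, a heparan sulfate proteoglycan of basement membranes whose C-terminal fragment is endostatin, an inhibitor of vessel growth. Its log2 intensity was 7.82, 7.68 and 7.69 with E157D and rosiglitazone, 7.94, 7.74 and 7.99 with E157D and DMSO, 10.79, 10.34 and 10.54 with wild-type and rosiglitazone, and 10.07, 9.76 and 9.79 with wild-type and DMSO. On the linear scale those are 226, 205 and 206, then 245, 214 and 254, then 1769, 1294 and 1484, and last 1074, 865 and 888 units. All 6 E157D arrays lay below all 6 wild-type arrays, with a gap of more than 1 log2 unit between them.

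E157D against wild-type differed by -2.82 ± 0.14 in rosiglitazone (limma adjusted p = 1.06e-07) and by -1.99 ± 0.14 in DMSO (adjusted p = 9.04e-06). Both calls held in all alternatives that were run. Col18a1 was the 1 collagen called in DMSO, where the class as a whole had a median difference of -0.12. There 2 of the 5 basement membrane genes had an unadjusted p under 0.05, against 1425 of all 13006 features. Between treatments the E157D arrays overlapped, at -0.16 ± 0.14 (adjusted p = 0.59), whereas with the wild-type receptor rosiglitazone raised Col18a1 by 0.68 ± 0.14 (adjusted p = 0.00342).

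The difference of those responses was -0.84 ± 0.19 (95% interval -1.26 to -0.42, limma adjusted p = 0.0423), the 1 such difference called among collagens. It was lost with median scaling (0.074), without a detection filter (0.0625), with every kept probe as a feature (0.0542), and when any array was left out other than wild-type DMSO array 1 or wild-type rosiglitazone array 2 (0.0547 to 0.106). Over all alternatives the value stayed between -0.98 and -0.70.

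Further probes of Col18a1 did not repeat the pattern in full. A second kept probe, detected on 5 of 12 arrays, read 4.97, 5.07 and 4.97 with E157D and rosiglitazone, 5.15, 5.01 and 5.22 with E157D and DMSO, 6.54, 5.89 and 6.63 with wild-type and rosiglitazone, and 4.81, 5.65 and 5.60 with wild-type and DMSO. It gave 1.00 ± 0.23 for rosiglitazone with the wild-type receptor (limma adjusted p = 0.0079) and -1.35 ± 0.23 between receptors in rosiglitazone (adjusted p = 0.00177), but -0.22 ± 0.23 between receptors in DMSO, where the arrays overlapped (adjusted p = 0.83). The second probe passed the filter only through wild-type arrays, where its signal was highest, so these values are not read as support for the first. With its E157D values near the floor and wild-type DMSO at 4.81 to 5.65, it could not show the first probe's difference in DMSO. The last probe of Col18a1 was below detection on all arrays. The files do not say which transcript of the gene each probe reads.

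RefSeq gives Col18a1 2 start sites 52825 bases apart, and their windows are printed because the transcript read by each probe is not known, with the same motifs in capitals.
Col18a1 upstream start, chr10:77166481-77166780, minus strand: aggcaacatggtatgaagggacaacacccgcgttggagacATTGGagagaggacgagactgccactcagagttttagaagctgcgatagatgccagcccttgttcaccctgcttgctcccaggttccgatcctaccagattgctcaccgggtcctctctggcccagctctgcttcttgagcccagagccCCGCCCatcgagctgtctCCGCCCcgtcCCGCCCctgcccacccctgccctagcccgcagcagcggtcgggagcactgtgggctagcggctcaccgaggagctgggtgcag
Col18a1 downstream start, chr10:77113656-77113955, minus strand: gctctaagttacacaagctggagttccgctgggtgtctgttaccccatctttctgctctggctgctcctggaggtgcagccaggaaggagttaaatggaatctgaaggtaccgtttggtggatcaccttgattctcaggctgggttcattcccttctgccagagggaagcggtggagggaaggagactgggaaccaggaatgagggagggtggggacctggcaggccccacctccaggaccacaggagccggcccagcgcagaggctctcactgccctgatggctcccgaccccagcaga
The upstream window holds 1 CCAAT box and 3 GC boxes, whereas the downstream one holds neither, and neither holds TATAAA or AGGTCA.

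**Figure D3:**
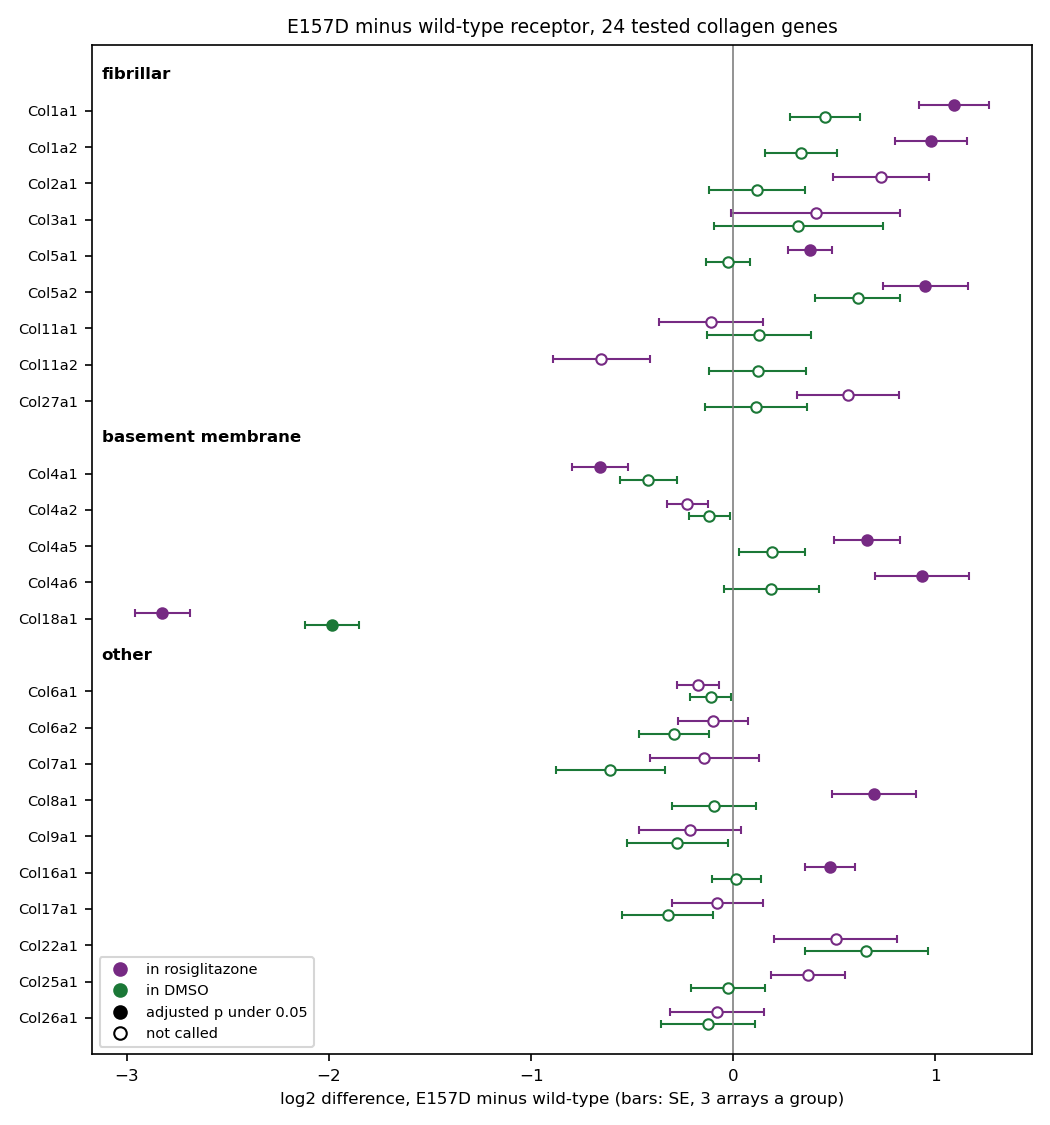
Log2 difference, E157D minus wild-type receptor, of the 24 tested collagen genes in rosiglitazone (purple) and in DMSO (green); bars are standard errors (3 arrays per group), and filled points passed limma's adjusted p under 0.05. Col18a1 lies at -2.82 in rosiglitazone and -1.99 in DMSO, and the 9 other filled points, all in rosiglitazone, lie between -0.66 and 1.09.

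Among the other types, the short-chain collagen Col8a1 fell with both receptors, and the fibril-associated Col16a1 with the wild-type one. The membrane-spanning Col17a1 was called lower with both receptors, but it passed the detection filter only through the DMSO groups. Col8a1, a chain of type VIII collagen of vessel walls and of the membrane beneath the corneal endothelium, had 8.52, 8.46 and 7.72 with E157D and rosiglitazone, 9.42, 9.24 and 9.10 with E157D and DMSO, 7.40, 7.65 and 7.57 with wild-type and rosiglitazone, and 9.62, 9.04 and 9.38 with wild-type and DMSO. The treatments did not overlap with either receptor. Its change was -1.02 ± 0.21 with E157D (limma adjusted p = 0.0181) and -1.81 ± 0.21 with wild-type (adjusted p = 0.000112), the second being the largest fall of any tested collagen. A second kept probe gave -1.12 and -1.79.

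The call of Col8a1 with E157D was lost without E157D DMSO array 1 (limma adjusted p = 0.0699) or array 2 (0.0619). Under rosiglitazone Col8a1 was higher with E157D than with wild-type by 0.69 ± 0.21 (adjusted p = 0.0342), a call lost when any array but E157D rosiglitazone array 3 was left out (0.0523 to 0.126), without a detection filter (0.0585), with the mean of the gene's probes (0.0648) and in a fit of only the groups compared (0.066). The difference of the responses was 0.79 ± 0.29 and was not called (adjusted p = 0.21), except without E157D rosiglitazone array 3 (0.0491). Between receptors in rosiglitazone the second kept probe of Col8a1 gave 0.47 ± 0.22 and did not pass (adjusted p = 0.175).

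Col17a1, a collagen of hemidesmosomes that anchors epithelial cells, was near the detection limit, detected on 1 array with E157D and rosiglitazone, 3 with E157D and DMSO, 1 with wild-type and rosiglitazone and 3 with wild-type and DMSO. It thus passed the filter only through the DMSO groups, where its signal was highest, so its calls are not read as a fall. The counts of called collagens include it for both responses. Its log2 intensity was 5.13, 4.95 and 5.48, then 6.29, 5.94 and 6.40, then 4.83, 5.57 and 5.41, and last 6.16, 6.76 and 6.68 in that order, with no overlap between treatments. The fitted change under rosiglitazone was -1.02 ± 0.22 with E157D (limma adjusted p = 0.0266) and -1.27 ± 0.22 with wild-type (adjusted p = 0.00173). The E157D call was lost without either of the E157D rosiglitazone arrays 1 (0.098) and 2 (0.0814) or the E157D DMSO arrays 1 (0.0875) and 3 (0.107), and with the mean of the gene's probes (0.0607). A further 2 kept probes of Col17a1 gave -0.37 and -0.29 with E157D, where neither passed, and -0.36 and -0.96 with wild-type, where the second passed. That second probe was detected on only 5 arrays and was highest on the wild-type DMSO arrays, so its pass is not read as support for a fall.

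Col16a1 lies along fibrils and near basement membranes. It had 12.68, 12.32 and 12.32 with E157D and rosiglitazone, 12.89, 12.62 and 12.87 with E157D and DMSO, 12.01, 11.998 and 11.87 with wild-type and rosiglitazone, and 12.84, 12.74 and 12.76 with wild-type and DMSO. The treatments overlapped with E157D, at -0.35 ± 0.12 (limma adjusted p = 0.14), and were apart with wild-type, at -0.82 ± 0.12 (adjusted p = 0.000576). The change with E157D did pass without background correction (0.0427). In rosiglitazone E157D was higher by 0.48 ± 0.12 (adjusted p = 0.0168), a call lost without wild-type rosiglitazone array 3 (0.0571), without E157D rosiglitazone array 1 (0.0593) and in a fit of only the groups compared (0.0552).

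Type VI collagen, which forms beaded filaments around cells, gave strong signal and no call. Col6a1 ranged from 14.31 to 14.63 over the 12 arrays, and its response was -0.04 ± 0.10 with E157D and 0.03 ± 0.10 with wild-type, with a 95% interval of -0.20 to 0.25 for the second. Col6a2 ranged from 11.68 to 12.44, with 0.20 ± 0.17 for E157D and 0.00 ± 0.17 for wild-type. Both genes have further kept probes, and none of these was called in any comparison. Col7a1 of anchoring fibrils, Col9a1 of cartilage, the fibril-associated Col22a1, the membrane-spanning Col25a1 and Col26a1 were detected on fewer than 12 arrays and were not called in any comparison as reported. Col22a1 did pass between receptors in rosiglitazone without wild-type rosiglitazone array 3, at 0.92 (limma adjusted p = 0.0163). For the 10 other types together, 0 were called between receptors in DMSO and 0 in the difference of responses by limma, with 1 and 2 at an unadjusted p under 0.05. Of all 13006 features 1425 and 2048 reached that unadjusted limit.

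Genes that fold, process, crosslink and bind collagen were followed through 3 lists. Of 19 tested genes for folding and modification, 0 passed limma's test under rosiglitazone with E157D, and the median was -0.06. There 4 of the 19 had an unadjusted p under 0.05, against 2409 of all 13006 features. With the wild-type receptor 2 of 19 fell and 0 rose, with a median of -0.07, where 14.4% of all features were called lower, so this count is near the background. P3h3, of the prolyl 3-hydroxylase family, had 9.99, 10.32 and 9.91 with E157D and rosiglitazone, 10.46, 10.56 and 10.34 with E157D and DMSO, 8.94, 9.29 and 9.16 with wild-type and rosiglitazone, and 10.13, 10.15 and 10.31 with wild-type and DMSO. The wild-type rosiglitazone arrays were the lowest, and the change with that receptor was -1.06 ± 0.13 (adjusted p = 0.000198). Ppib, the cyclophilin B of the same modifying complex, fell by 0.55 ± 0.13 (adjusted p = 0.0101), a call lost with median scaling (0.119). Serpinh1, the collagen chaperone HSP47, was not called with either receptor.

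Some genes of procollagen processing and crosslinking fell with both receptors. Of 6 tested, 2 fell with E157D (median -0.36) and 4 with wild-type (median -0.45), and 0 rose with either, where 1.79% and 14.4% of all features were called lower. Bmp1, which cleaves the C-terminal propeptide of fibrillar procollagens, had 10.50, 10.48 and 10.30 with E157D and rosiglitazone, 11.01, 11.17 and 11.16 with E157D and DMSO, 9.78, 9.996 and 9.90 with wild-type and rosiglitazone, and 11.16, 11.05 and 10.92 with wild-type and DMSO. Its rosiglitazone arrays lay below the DMSO arrays with either receptor, by -0.69 ± 0.11 with E157D (limma adjusted p = 0.00418) and -1.15 ± 0.11 with wild-type (adjusted p = 3.33e-05).

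Lox, the lysyl oxidase that crosslinks collagen and elastin, had 13.91, 14.10 and 14.09 with E157D and rosiglitazone, 14.55, 14.64 and 14.71 with E157D and DMSO, 12.94, 13.51 and 13.41 with wild-type and rosiglitazone, and 14.32, 14.65 and 14.57 with wild-type and DMSO. Again the treatments did not overlap, with -0.60 ± 0.15 for E157D (limma adjusted p = 0.0445) and -1.22 ± 0.15 for wild-type (adjusted p = 0.000171). The E157D call of Lox was lost when any 1 of the 6 arrays was left out (0.0752 to 0.164). Sparc, a collagen-binding matrix protein, and Pcolce, an enhancer of Bmp1, fell with the wild-type receptor by 0.48 ± 0.13 (adjusted p = 0.0176) and 0.41 ± 0.12 (adjusted p = 0.0222). Each of these was lost without 3 single arrays: Sparc without wild-type rosiglitazone array 1 (0.0704) and wild-type DMSO arrays 2 (0.0721) and 3 (0.0612), Pcolce without wild-type rosiglitazone arrays 1 (0.0871) and 3 (0.0578) and wild-type DMSO array 3 (0.0741). Median scaling also ended the calls of Sparc (0.242) and Pcolce (0.301) with wild-type and of Bmp1 (0.0692) and Lox (0.175) with E157D.

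Of 7 tested collagen receptors and uptake genes, 1 fell with E157D and 2 with wild-type, and 0 rose, where 1.79% and 14.4% of all features were called lower. Itga11, the integrin chain that binds type I collagen on fibroblasts, had 10.39, 11.07 and 10.73 with E157D and rosiglitazone, 11.43, 11.71 and 11.71 with E157D and DMSO, 9.67, 10.05 and 9.84 with wild-type and rosiglitazone, and 10.76, 11.31 and 11.30 with wild-type and DMSO. The changes were -0.89 ± 0.19 with E157D (limma adjusted p = 0.0266) and -1.27 ± 0.19 with wild-type (adjusted p = 0.000672), and the treatments did not overlap. With E157D the call was lost with median scaling (0.0985), with the mean of the gene's probes (0.0501) and without E157D rosiglitazone array 1 (0.11) or 3 (0.0774) or E157D DMSO array 2 (0.0952) or 3 (0.099).

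Ctsk, the collagen-degrading cathepsin K, was the second gene that fell with wild-type, by 0.55 ± 0.14 (limma adjusted p = 0.0127), a call lost without wild-type rosiglitazone array 1 (0.0559) or wild-type DMSO array 3 (0.0548), with median scaling (0.0688) and in a fit of only the groups compared (0.0526). It was also the 1 gene of the 3 lists called between the receptors in DMSO, where 1.12% of all features were called. It had 9.64, 9.58 and 9.57 with E157D and rosiglitazone, 9.68, 9.91 and 9.73 with E157D and DMSO, 8.06, 8.50 and 8.15 with wild-type and rosiglitazone, and 8.63, 8.71 and 9.03 with wild-type and DMSO, so that all E157D arrays lay above all wild-type arrays. E157D exceeded wild-type by 1.36 ± 0.14 in rosiglitazone (limma adjusted p = 4.59e-05) and by 0.98 ± 0.14 in DMSO (adjusted p = 0.00417). Between receptors in rosiglitazone, 3 of 19 folding genes were called higher with E157D and 0 lower. Of 6 processing genes 3 were higher and 1 lower, and of 7 receptor and uptake genes 2 were higher and 0 lower. Of all features 19.8% were called, 10.5% higher and 9.26% lower, so the folding count is near the background. P3h3 was higher with E157D by 0.94 ± 0.13 (adjusted p = 0.000484), Lox by 0.74 ± 0.15 (adjusted p = 0.00488) and Itga11 by 0.88 ± 0.19 (adjusted p = 0.00807). Bmp1 was higher by 0.54 ± 0.11 (adjusted p = 0.00512), a call lost with the mean of its probes (0.0715).

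A further 4 genes were called in that comparison but rested on single arrays. Ppib, higher with E157D by 0.49 ± 0.13 (limma adjusted p = 0.0233), was lost without wild-type rosiglitazone array 1 or 2 or E157D rosiglitazone array 2 or 3 (0.0558 to 0.0945). P4ha1, a subunit of prolyl 4-hydroxylase, was higher by 0.48 ± 0.16 (adjusted p = 0.0475) and was lost without any rosiglitazone array other than wild-type array 2 (0.0828 to 0.164). Sparc, higher by 0.50 ± 0.13 (adjusted p = 0.018), was lost without wild-type rosiglitazone array 1 (0.0738) or E157D rosiglitazone array 2 (0.0705). Loxl4, of the lysyl oxidase family, was lower with E157D by -0.45 ± 0.13 (adjusted p = 0.03) and was lost without wild-type rosiglitazone array 1 or 3 or E157D rosiglitazone array 2 or 3 (0.0784 to 0.106). The Loxl4 call was also lost, at a smaller difference, with median scaling (-0.22, 0.409), with the mean of its probes (-0.16, 0.362), without background correction (-0.20, 0.0682) and in the authors' processed table (-0.18, 0.0991), and at a similar one with array weights (0.0573) and in a fit of only the groups compared (0.0782).

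In the difference of responses, 0 genes of the 3 lists passed limma's test as reported. Unadjusted p under 0.05 was reached by 1 of 19 folding genes, 2 of 6 processing genes and 1 of 7 receptor genes, against 2048 of all 13006 features. The smallest adjusted values were those of P3h3 (0.68 ± 0.19, adjusted p = 0.0878, but 0.0306 without background correction and 0.0275 in the authors' processed table) and Bmp1 (0.47 ± 0.15, adjusted p = 0.153). The plot of assembly and binding genes gives the response of all 32 with both receptors.

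**Figure D4:**
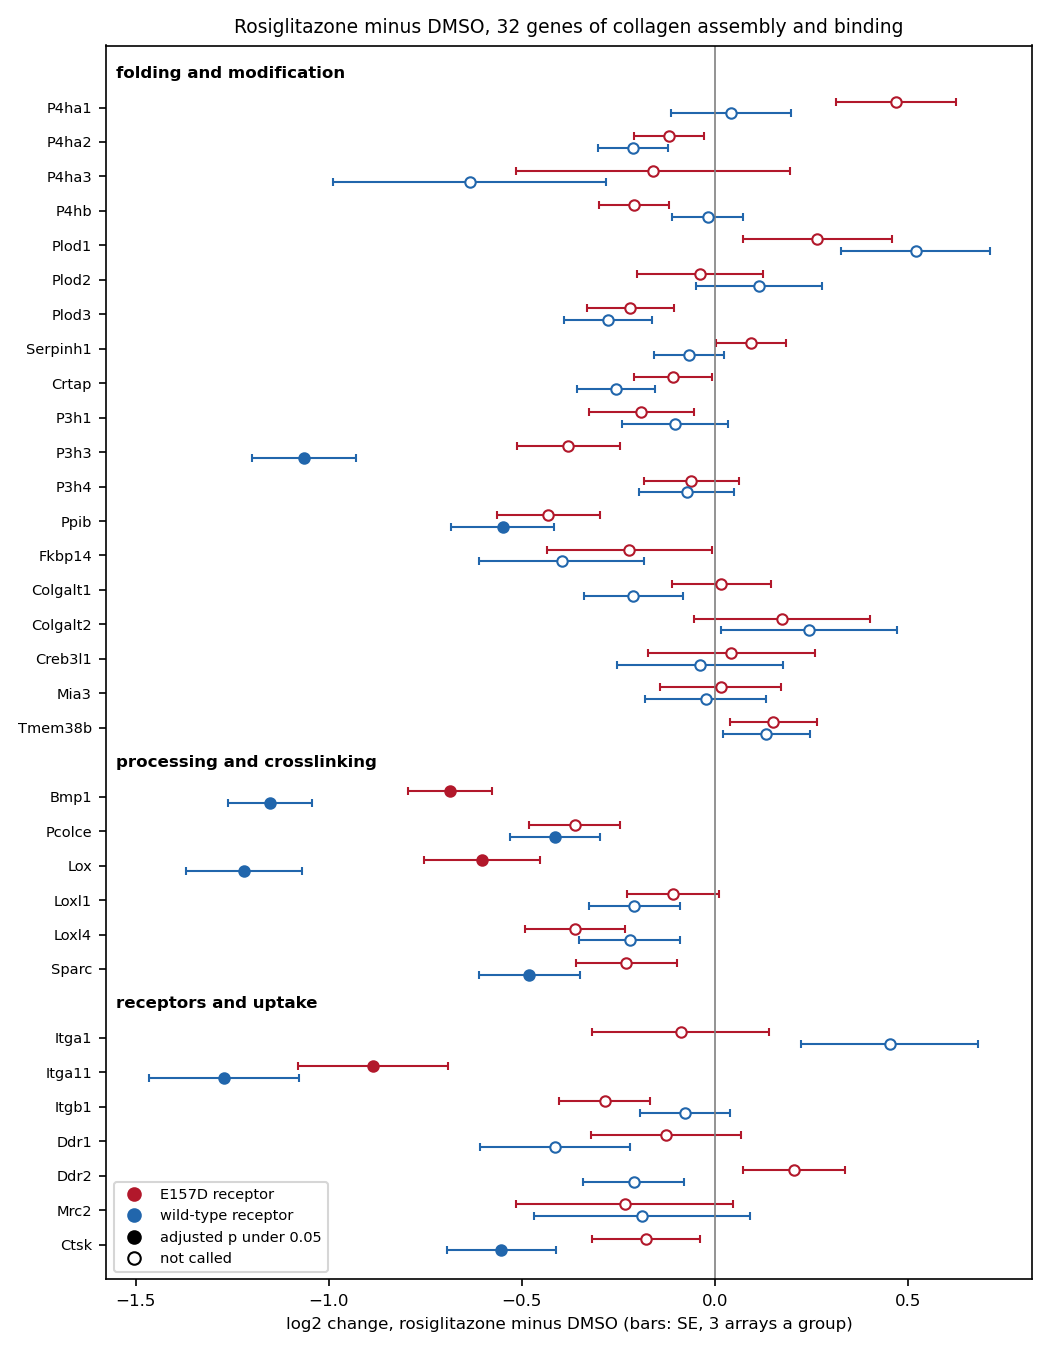
Log2 change, rosiglitazone minus DMSO, of 32 tested genes of collagen folding, processing and binding with the E157D receptor (red) and the wild-type receptor (blue); bars are standard errors (3 arrays per group), and filled points passed limma's adjusted p under 0.05. All filled points lie left of 0, with Bmp1, Lox and Itga11 filled for both receptors.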

How the data were processed

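Total RNA was labelled with biotin and hybridised to 1-colour bead arrays, per the labels. The deposited files hold, per the file headers, non-normalized intensity values with their detection p-values, 45281 probes on each of 12 arrays. A second deposited table of processed intensity values, made in a way the sources used here do not state, served as an alternative.

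Background correction (normexp, controls inferred from the detection p-values, offset 16), quantile normalization and log2 transformation were done with neqc of limma 3.58.1 in R 4.3.3. From the deposited intensity values, 18921 probes with a detection p below 0.05 on 3 or more arrays were kept, and each gene was read from its kept probe with the highest mean, which gave 13006 features. Quantile normalization hides a shift of all genes in 1 direction. The linear intensities given are normalized and include the offset. Where a gene has further kept probes, their values come from a fit with every probe as a feature.

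A model of 4 group means was fitted to all features with lmFit and eBayes (8 residual and 3.90 prior degrees of freedom), and p-values were adjusted over all features by Benjamini-Hochberg, with calls at 0.05. The p-values measure the spread between these arrays. The collagen genes, the classes, the 3 lists of assembly genes and the markers were chosen with earlier results of these data known. Every collagen gene with a probe could be named, and of the lists up to 6 called members per comparison, or the 2 with the smallest p. Serpinh1 was named outside that rule, after its values were seen. Alternatives were no background correction, median scaling, other detection filters, the processed table, the replicate number as a block, other ways to treat a gene's probes, array weights, only the groups compared, and each array left out in turn.

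After subtraction of group means, arrays with the same number correlated at 0.129 to 0.239 over the 3 pairs of the wild-type response, above the limit of 0.1, so the numbers were taken to pair those arrays, a step that rests on the data alone. The reported p-values do not use this pairing, which enters only through the alternative with the replicate number as a block. In each other comparison at least 1 pair lay below 0.1, although that block is shared by the arrays of all 4 groups. The fit was tested on simulated data with known changes. Promoter windows come from RefSeq (GRCm38.p6) and were searched on both strands.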

Additional observations from a re-analysis of the deposited data

Results flagged for a closer look

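Col18a1 was singled out because its rosiglitazone responses with the 2 receptors differed in the test of the difference itself, by -0.84 ± 0.19 on the log2 scale, E157D minus wild-type (limma, Benjamini-Hochberg adjusted p = 0.0423). The response was -0.16 ± 0.14 with E157D and 0.68 ± 0.14 with wild-type (n = 3 arrays per group). All 3 wild-type rosiglitazone arrays lay above all 3 wild-type DMSO arrays, while the E157D arrays of both treatments overlapped. Over the alternatives the adjusted p of this difference was under 0.05 in some and up to 0.106 in others.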

How the results depend on the processing

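Of 25 called changes of single collagens, 15 kept their call under all alternatives run and 10 lost it under at least 1. Of 95 uncalled changes 10 gained a call. Among changes called as reported or under an alternative, 0 changed direction between the 2. A change of sign with a call in neither was not counted. The count of collagens called in the E157D response, 2 as reported, was 4 without background correction, 1 with the probes detected on all 12 arrays and 1 with the mean of a gene's probes. The 1 collagen called in the difference of responses became 0 with median scaling, without a detection filter and with every kept probe as a feature. Leaving out 1 array at a time gave 0 to 2 collagens in the E157D response, 10 to 12 in the wild-type response, 1 between receptors in DMSO, 7 to 11 between receptors in rosiglitazone and 0 to 1 in the difference of responses. The cause of these shifts was not tested, beyond the fewer arrays of those fits. In rosiglitazone a fit of only the groups compared called 7 collagens, 5 higher and 2 lower with E157D. With the replicate number as a block, 2 collagens were called in the E157D response, 12 in the wild-type response, 1 between receptors in DMSO, 11 in rosiglitazone and 1 in the difference. The calls of collagens that the block added were Col5a2 in the wild-type response and Col11a2 between receptors in rosiglitazone. Over all features the block moved the calls to 820 for the E157D response, against 533, and to 3899 for the wild-type response, against 3473. Between receptors it moved them to 233 in DMSO, against 146, and to 3058 in rosiglitazone, against 2571. For the difference of responses the block gave 471, against 310. Median scaling put the median difference of all features, E157D minus wild-type, at 0.17 in rosiglitazone (0.02 as reported) and 0.12 in DMSO (0.01 as reported). A fit of only the groups compared has no counterpart for the difference of responses. For Col17a1 and the 17 untested collagens, signal near or below background limits what can be said.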
